A study of Mus musculus with 9 samples.

Results

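The constitutive proteasome subunit genes were followed in 9 regenerating mouse livers. Each was collected 12 h after partial hepatectomy (PHx), surgery in which lobes are cut away so that the remainder grows back. The members were all probes of the bead array whose gene symbol begins with Psma, Psmb, Psmc or Psmd and a digit, without the interferon-induced subunit genes Psmb8, Psmb9 and Psmb10, provided that 4 or more of the 9 arrays detected them (detection p under 0.05). This left 30 of 37 genes, read by 50 of 66 such probes, out of 9319 named genes and 15687 probes that passed the same detection rule, of 45281 probes on the array. The 4 control livers (control 1 to control 4) were labelled WT with the treatment Control. The KO livers (KO 1 to KO 5, n = 5) were from animals of the genotype LTRβ-/- (as the labels spell it; the gene is Ltbr, the lymphotoxin β receptor) that had been given Etanercept, a soluble TNF receptor fusion protein, 24 h before surgery. All 9 mice were of strain C57BL/6 and all had been operated on. Genotype and drug changed together, what the control mice were given, their age and their sex are not stated, and no unoperated liver is among the samples, so every difference below belongs to the combination. The labels do not say in words that each array is a separate mouse, and p-values measure only the spread between these samples.

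The proteasome is the protease that breaks down proteins tagged with ubiquitin. Its 20S core is a barrel of rings of alpha subunits, which form the gate, and of beta subunits, some of which cut peptide bonds. The 19S cap sits on the barrel: its base holds ATPases that unfold the substrate, and its lid removes the ubiquitin chain. In many mammalian cells the subunit genes are raised together by the transcription factor NFE2L1 when proteasome activity falls short, and interferon swaps the catalytic subunits for Psmb8, Psmb9 and Psmb10.

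The antioxidant response element bound by NFE2L1 and NFE2L2 is one route to such a joint change, so the promoters (250 bases before to 50 after the start, RefSeq, GRCm38.p6) were searched for its core TGACNNNGC, on both strands. A promoter sequence was at hand for 24 of the 29 detected genes that encode a proteasome subunit or chaperone; Psmb1, Psmb2, Psmb7, Psmc3 and Psmd7 had no entry. The core stood in 5 of the 24 genes (20.8%) and in 4071 of 32851 promoters in the table (12.4%). The members are counted by gene, through any promoter entry of the gene, and the whole by promoter entry, so these shares differ in unit. These 5 are shown because they are the members that carry the core; the region is chr14:54617946-54618245, minus strand for Psmb5, chr11:70525107-70525406, plus strand for Psmb6, chr5:123227940-123228239, plus strand for Psmd9, chr14:45329574-45329873, plus strand for Psmc6 and chr11:107479278-107479577, plus strand for Psmd12. Each is written 5′ to 3′ along the gene, and capitals mark the TGACNNNGC core and, in Psmc6 and Psmd12, also the ETS core CCGGAAG, read on either strand; the motifs do not overlap here.
Psmb5: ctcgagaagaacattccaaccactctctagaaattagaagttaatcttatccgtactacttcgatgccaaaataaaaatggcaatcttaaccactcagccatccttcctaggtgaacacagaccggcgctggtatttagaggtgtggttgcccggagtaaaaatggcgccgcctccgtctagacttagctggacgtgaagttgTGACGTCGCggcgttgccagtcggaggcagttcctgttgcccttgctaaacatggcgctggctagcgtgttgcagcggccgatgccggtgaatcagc
Psmb6: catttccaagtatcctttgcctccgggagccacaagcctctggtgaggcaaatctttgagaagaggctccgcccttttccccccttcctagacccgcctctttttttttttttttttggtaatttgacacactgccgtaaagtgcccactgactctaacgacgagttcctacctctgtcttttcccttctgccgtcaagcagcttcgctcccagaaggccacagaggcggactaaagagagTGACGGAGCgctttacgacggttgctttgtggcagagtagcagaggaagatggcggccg
Psmd9: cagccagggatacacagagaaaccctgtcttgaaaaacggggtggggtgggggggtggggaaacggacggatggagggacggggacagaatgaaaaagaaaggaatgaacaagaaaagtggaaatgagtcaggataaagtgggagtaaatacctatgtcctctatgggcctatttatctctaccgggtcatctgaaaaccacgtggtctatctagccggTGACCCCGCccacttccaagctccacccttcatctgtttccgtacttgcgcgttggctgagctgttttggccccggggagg
Psmc6: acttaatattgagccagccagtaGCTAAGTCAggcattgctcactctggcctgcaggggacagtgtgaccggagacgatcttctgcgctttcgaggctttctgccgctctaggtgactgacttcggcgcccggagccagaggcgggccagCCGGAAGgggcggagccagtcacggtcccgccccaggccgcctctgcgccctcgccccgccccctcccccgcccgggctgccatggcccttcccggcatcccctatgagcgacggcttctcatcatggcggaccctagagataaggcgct
Psmd12: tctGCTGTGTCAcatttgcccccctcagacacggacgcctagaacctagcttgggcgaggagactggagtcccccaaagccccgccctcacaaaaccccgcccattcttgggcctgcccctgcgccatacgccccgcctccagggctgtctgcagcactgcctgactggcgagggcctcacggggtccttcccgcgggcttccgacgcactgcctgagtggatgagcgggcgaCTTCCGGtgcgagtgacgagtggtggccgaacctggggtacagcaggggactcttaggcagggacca
The ETS core stood in 8 of the 24 genes (33.3%) and in 8.86% of the promoters in the table, with the same difference in unit. A match to these letters is a description of the sequence and not a site of binding.

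No constitutive proteasome gene passed the test between the KO and control livers. By limma with Benjamini-Hochberg adjustment over all probes, 0 of the 50 member probes had an adjusted p under 0.05, against 0% of the 15687 probes tested. At an unadjusted p under 0.05, 0 of the 50 were counted, against 3.68% of all probes (577; 1.39% higher and 2.29% lower), and KO and control arrays overlapped for each of the 50, where 0.708% of all probes had groups without overlap (0.28% higher and 0.427% lower). The smallest p of a member was 0.100 (adjusted 0.959). Of the member probes, 29 had a lower and 21 a higher mean in the KO livers; 58.0% were lower, against 54.7% of all probes. Their median difference, KO minus control on the log2 scale, was -0.059, beside -0.038 for all probes. The direction of this small median turned without KO 4 (0.084), a dim array described below, with array weights (0.125) and on slide 1 alone (0.004).

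The intervals show how large a change these arrays leave room for. Each gene is given by its brightest detected probe. For 22 of the 29 subunit and chaperone genes the 95% limits of the difference lay within 1 log2 unit of 0, which is a 2-fold change either way, and for 7 they lay within a 1.5-fold change. Limits within 1 log2 unit were found for 75.9% of these genes, 68.0% of the 50 member probes and 54.7% of all probes. The 29 differences ran from -0.54 (Psmd9) to 0.17 (Psmd8), with a median of -0.010, and 25 of the 29 lay within 0.25 of 0. Without KO 4 the signs of 12 of the 30 gene differences turned, 20 of the 29 were positive, and they ran from -0.29 (Psmc6) to 0.47 (Psmd11).

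**Figure D1:**
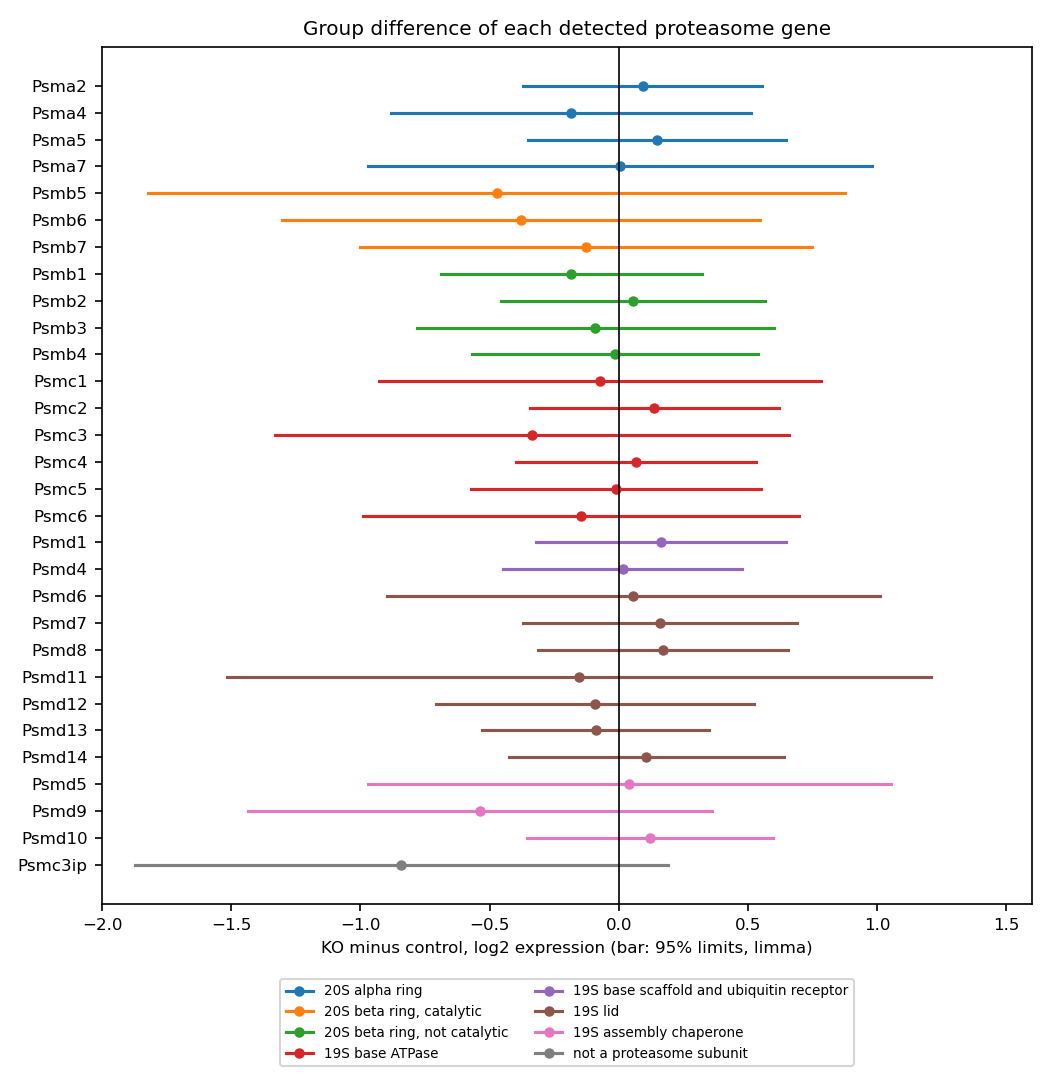
Difference between KO and control livers for the 30 detected genes, in log2 units, with 95% limits from limma; colours give the role in the complex. All 30 bars cross 0, and the widest belong to Psmd11, Psmb5 and Psmc3ip.

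The catalytic beta subunit genes had the lowest median difference of any group of subunits, -0.38 over 3 genes, with wide limits. Psmb5 encodes the subunit with chymotrypsin-like activity. Its log2 expression was 7.17, 8.08, 7.68 and 7.29 in control 1 to control 4, and 6.30, 8.25, 8.32, 5.03 and 7.52 in KO 1 to KO 5. The KO livers lay on both sides of the controls: KO 2 and KO 3 were above all controls, and KO 1 and KO 4 below all of them. The mean was 7.56 ± 0.41 (SD, n = 4) in the controls and 7.08 ± 1.41 (SD, n = 5) in the KO livers, a difference of -0.47 ± 0.61 (SE; 95% limits -1.82 to 0.88; limma adjusted p = 0.959).

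Psmb6, which encodes the caspase-like subunit, read 10.62, 11.32, 11.23 and 10.69 in the controls and 10.15, 11.07, 11.42, 9.24 and 11.06 in the KO livers. KO 1 and KO 4 were again below every control, and KO 3 above every control. The difference was -0.38 ± 0.42 (SE; 95% limits -1.30 to 0.55), and a further probe of Psmb6 gave -0.42. Psmb7, which encodes the trypsin-like subunit, read 10.79, 11.19, 11.31 and 10.51 in the controls and 10.47, 11.55, 11.40, 9.57 and 11.13 in the KO livers. KO 2 and KO 3 were above the controls, and KO 1 and KO 4 below them. The difference was -0.13 ± 0.40 (SE), and its 4 probes gave differences from -0.22 to 0.00. Without KO 4 the differences of Psmb5, Psmb6 and Psmb7 were 0.04, -0.04 and 0.19.

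The interferon-induced counterparts of these subunits did not pass the test either. Psmb9, the counterpart of Psmb6, differed by -0.51 ± 0.35 (SE), Psmb10, the counterpart of Psmb7, by -0.30 ± 0.25 (SE), and Psmb8, the counterpart of Psmb5, by 0.03 ± 0.29 (SE), each with a limma adjusted p of 0.959 or more. The Psmb8 probe was dim, at 4.83 to 6.04 over the 9 arrays. It was detected on 3 of the 4 control and 4 of the 5 KO arrays, which limits its pair value too. Whether the members of each pair changed unequally was tested on the log2 difference within each array (exact permutation test over the 9 arrays, two-sided, 3 pairs). The KO minus control value was 0.51 ± 0.58 (SE) for Psmb8 against Psmb5 (exact p = 0.524), -0.13 ± 0.54 (SE) for Psmb9 against Psmb6 (exact p = 0.841) and -0.17 ± 0.45 (SE) for Psmb10 against Psmb7 (exact p = 0.730), and each was 0.841 after adjustment. The smallest p this test can give is 0.0159. Without KO 4 the Psmb8 against Psmb5 value was 0.06, while the other pair values moved away from 0, to -0.444 each. Those other values turned positive without control 4 (0.15 and 0.09) or without KO 2 (0.19 and 0.005), in the order given.

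**Figure D2:**
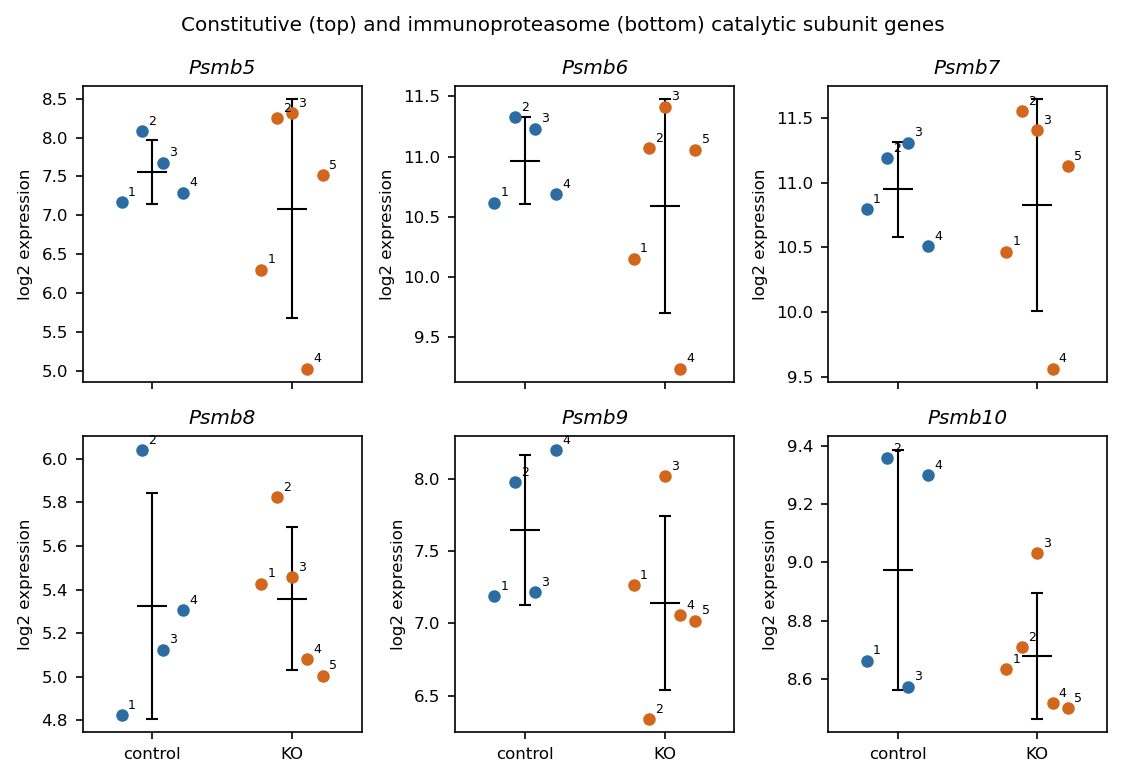
Normalized log2 expression of the catalytic subunit genes on each array (numbers are the replicate), with mean and SD as bars. The constitutive genes in the top row have their lowest value on KO 4, and the groups overlap in all 6 panels.

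The beta subunits without catalytic activity had smaller differences, with a median of -0.05 over 4 genes. Psmb1 read 10.73, 10.73, 10.56 and 10.53 in the controls and 10.37, 10.85, 10.62, 9.94 and 10.50 in the KO livers. KO 1, KO 4 and KO 5 lay below the controls and KO 2 above them, for a difference of -0.18 ± 0.23 (SE; 95% limits -0.69 to 0.32). Psmb2, Psmb3 and Psmb4 differed by 0.05, -0.09 and -0.01. In the alpha ring, Psma5 read 13.04, 12.63, 12.44 and 13.02 in the controls and 13.20, 12.75, 12.68, 13.01 and 13.01 in the KO livers. Only KO 1 passed the highest control, and the difference was 0.15 ± 0.23 (SE; 95% limits -0.35 to 0.65). Psma2, Psma4 and Psma7 differed by 0.09, -0.18 and 0.00, and all 4 detected alpha subunit genes had limits within 1 log2 unit of 0.

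Of the 19S base ATPases, which pull the substrate into the core, all 6 genes were detected, and they differed by -0.34 (Psmc3) to 0.14 (Psmc2). Psmc2 read 12.93, 12.61, 12.39 and 12.77 in the controls and 13.15, 12.62, 12.62, 12.90 and 12.77 in the KO livers, so that only KO 1 was above the controls (difference 0.14 ± 0.22, SE; 95% limits -0.34 to 0.62). The dimmer Psmc2 probe gave -0.26. Psmc1, Psmc4, Psmc5 and Psmc6 differed by -0.07, 0.07, -0.01 and -0.14. The Psmc6 probe was detected on 3 of the 4 control and 2 of the 5 KO arrays. Without KO 4 the lower end of the range did not hold for Psmc3, at 0.05, and Psmc1 stood at 0.25. In the base scaffold, Psmd1 read 13.08, 12.63, 12.50 and 12.93 in the controls and 13.18, 12.94, 12.69, 13.11 and 12.83 in the KO livers. KO 1 and KO 4 were above the controls, the others within them, and the difference was 0.16 ± 0.22 (SE; 95% limits -0.32 to 0.65). Psmd4, a ubiquitin receptor, differed by 0.01 ± 0.21 (SE).

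Lid subunits lay close to 0 as well, 4 of the 7 detected genes with a higher and 3 with a lower mean. Psmd8 read 11.35, 11.04, 11.05 and 10.83 in the controls and 11.14, 11.07, 11.06, 11.28 and 11.64 in the KO livers. KO 5 was the one KO liver above the controls (difference 0.17 ± 0.22, SE; 95% limits -0.31 to 0.65). Psmd7, which forms a dimer with the deubiquitinase Psmd14, read 11.09, 10.71, 10.58 and 11.13 in the controls and 11.15, 10.67, 10.84, 11.48 and 11.04 in the KO livers. Here KO 1 and KO 4 were above the controls (difference 0.16 ± 0.24, SE; 95% limits -0.37 to 0.69). The dimmer Psmd7 probes gave -0.16 and 0.35. Psmd14 differed by 0.11 ± 0.24 (SE), Psmd6 by 0.06, Psmd11 by -0.15, Psmd12 by -0.09 and Psmd13 by -0.09.

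Among the chaperones that help build the 19S base, Psmd9 had the lowest mean difference of the 29 genes. It read 6.05, 6.59, 6.24 and 6.86 in the controls and 6.02, 5.68, 6.77, 4.57 and 6.46 in the KO livers. KO 1, KO 2 and KO 4 lay below the controls and KO 3 and KO 5 inside their range, for a difference of -0.54 ± 0.41 (SE; 95% limits -1.43 to 0.36; limma adjusted p = 0.959). It was -0.21 without KO 4, and this probe was detected on 4 of the 5 KO arrays. The other detected Psmd9 probe differed by -0.06. Psmd10 (gankyrin) and Psmd5 differed by 0.12 and 0.04. The Psmd5 probe was detected on 2 of the 4 control and 3 of the 5 KO arrays. Psmc3ip, which the symbol rule takes in although it encodes a factor of meiotic recombination and no proteasome subunit, had the smallest p of all 30 genes. It read 4.85, 7.30, 4.72 and 5.58 in the controls and 4.71, 4.69, 5.19, 4.34 and 4.93 in the KO livers, was detected on 2 arrays of each group, and differed by -0.84 ± 0.47 (SE; 95% limits -1.87 to 0.19; limma adjusted p = 0.959). Its control mean rests largely on control 2.

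Where the detection rule fell, Psmd6 (its weaker probe) and Psmc3ip were just inside with 4 arrays each, and a probe each of Psma8 and Psmd2 just outside with 2. In all, 16 probes failed: 6 belong to genes with another probe that passed, and 10 to 7 genes with none. Those genes are Psma1, Psma3, Psma6, Psmd2 and Psmd3, which encode standard subunits, Psma8, an alpha subunit known from testis, and Psmb11, the beta subunit known from thymus. Their highest signal on any array was 107 to 131 intensity units, so no group difference can be given for them.

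The spread between arrays was larger than the difference between groups, and it had a shape of its own. KO 4 gave the lowest value of all 9 arrays for 14 of the 29 genes and the highest for 2. Its mean bead signal was 143 intensity units, against 336 to 438 on the other arrays, and 9493 probes were detected on it, against 13926 to 16186. KO 4 minus the control mean was -2.63 for Psmd11, -2.53 for Psmb5 and -1.73 for Psmb6, but 0.60 for Psmd7 and 0.58 for Psmc5. The Psmd11 and Psmb5 probes were detected on 4 of the 5 KO arrays and read 5.30 and 5.03 on KO 4. The median SD within the KO group was 0.42 over the 29 genes and 0.28 without KO 4, beside 0.28 in the controls. Over all probes these medians were 0.52, 0.38 and 0.34.

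Taken against the mean of the other 8 arrays, 15 genes were low and 14 high on KO 4. The low set held the catalytic genes Psmb5, Psmb6 and Psmb7 with Psma4, Psma7, Psmb1, Psmb3, Psmb4, Psmc1, Psmc3, Psmd5, Psmd9, Psmd11, Psmd12 and Psmd14. The high set held Psma2, Psma5, Psmb2, Psmc2, Psmc4, Psmc5, Psmc6, Psmd1, Psmd4, Psmd6, Psmd7, Psmd8, Psmd10 and Psmd13. Both sets mix core and cap: 8 genes of the 20S core and 7 of the 19S cap or its chaperones were low, and 3 and 11 were high.

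Other arrays, of both groups, showed the same split. Of the 15 low genes, 14 were also below the mean of the remaining arrays (KO 4 left out) on KO 1, 13 on control 4 and 11 on control 1, while 1 was below it on KO 3, 2 on KO 2, 3 on control 2, and 4 each on control 3 and KO 5. Of the 14 high genes, 13 were above it on control 4, 12 on control 1 and 11 on KO 1, with 7 on KO 5, 3 on KO 2, and 2 each on KO 3, control 2 and control 3. Psmb5, for instance, is low on KO 1 and high on KO 2, while Psmc2 is highest on KO 1. The arrays KO 4, KO 1, control 4 and control 1 are those with the fewest detected probes (9493, 13926, 14699 and 14868); the 5 others had 15323 to 16186. The same split over the probes of all genes gave these shares: of the 8877 probes low on KO 4, 67.7% were low on KO 1, 64.7% on control 4 and 53.5% on control 1, beside 93.3%, 86.7% and 73.3% of the low proteasome genes. Of the probes high on KO 4, 78.2% were high on KO 1, 66.1% on control 4 and 66.1% on control 1, beside 78.6%, 92.9% and 85.7% of the high proteasome genes, so that on KO 1 the high genes were close to all probes. The shares over all probes are not matched to the proteasome genes for brightness. On KO 4 the median deviation from the control mean was -1.078 for the 14 dimmer proteasome genes (11 below it). It was 0.223 for the 15 brighter ones (4 below it). Over all probes, divided at the same level, these medians were -0.268 and 0.08. Since the low and high sets were made from the same values, no test was run on them, and the parts of brightness and array quality in the split were not tested.

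**Figure D3:**
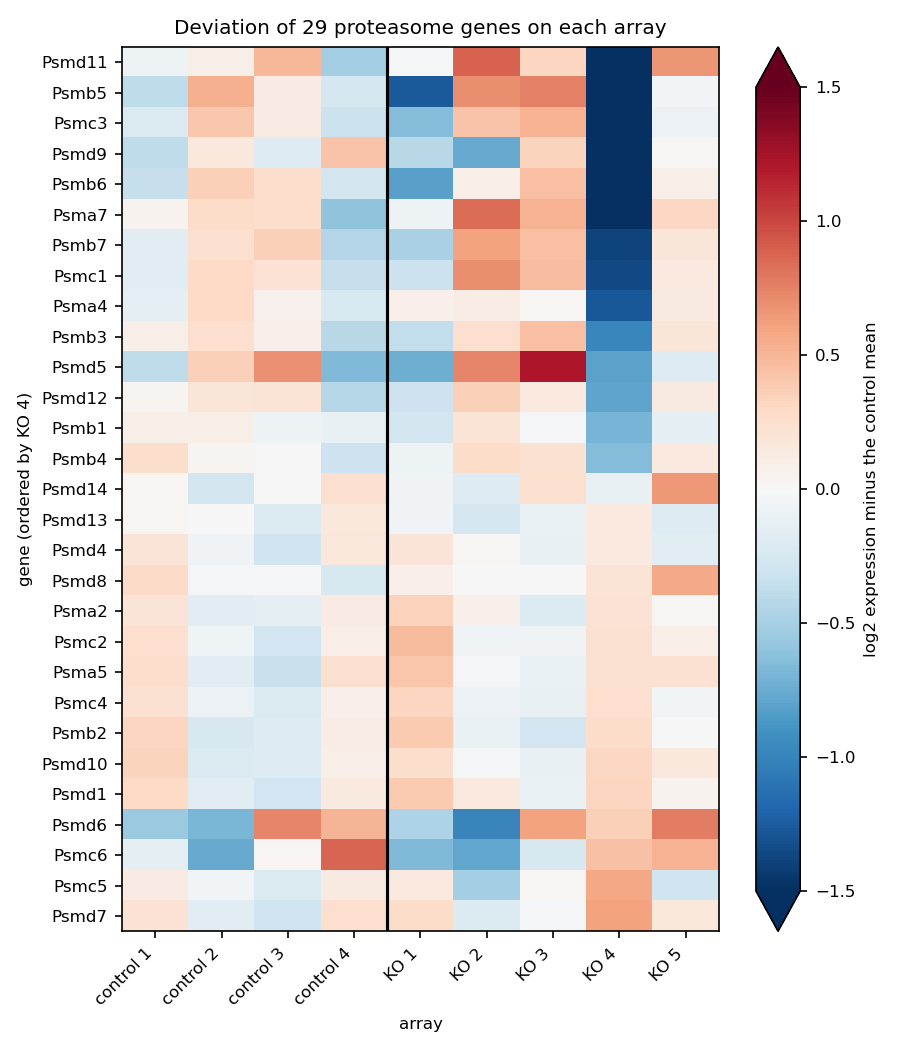
Log2 expression of the 29 genes on each array minus the control mean of the gene, ordered by KO 4 (colours end at 1.5 either side of 0). Of the 15 upper genes, below the control mean on KO 4, 14 are also below it on KO 1, 13 on control 4 (not Psmd9 and Psmd14) and 9 on control 1, while 13 are above it on KO 2 and 14 on KO 3. Of the 14 lower genes, 11 are above it on KO 1, 13 on control 4 and 12 on control 1.

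Probes of one gene did not always share this pattern. Of the 15 genes with several detected probes, 10 had probes with group differences of opposite sign, and on KO 4 the probes of 9 deviated from the control mean in opposite directions. The brighter probe of Psmc5 was 0.58 higher on KO 4 than the control mean and the dimmer one stood at -4.16. For Psmd7 the brightest probe was at 0.60, the next at -3.01 and the dimmest at 0.54. The dimmer Psmc5 probe and the middle Psmd7 probe were each detected on 4 of the 5 KO arrays. The dimmer Psmc5 probe gave the lowest group difference of the 50 probes, -1.02 ± 0.87 (SE), where the brighter gave -0.01 ± 0.26 (SE). Probes read different stretches of a transcript, and which one reports the gene was not tested.

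**Figure D4:**
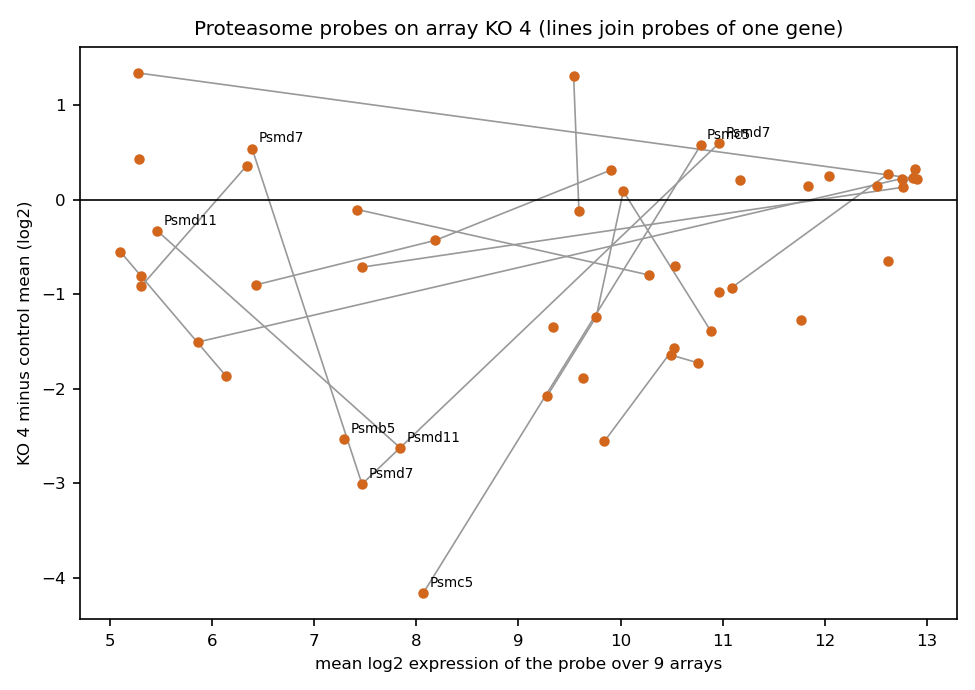
Deviation of KO 4 from the control mean for each detected probe of the 29 genes, against the mean log2 expression of the probe; lines join probes of one gene. Deviations run from -4.16 for a Psmc5 probe to 1.34 for a Psma5 probe, and probes with a mean above 12 lie between 0.13 and 0.32, apart from Psmb4 at -0.65.

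Surgery day and slide were each set beside the result. Within surgery day 1 (control 4 and KO 1), day 2 (control 2 and KO 4) and day 5 (control 1 and KO 3) the median of the 50 probes was -0.079, -0.604 and 0.272, each from 1 array against 1. With day as a block it was -0.172 (limma, 0 of 50 probes past the threshold), and within slide 1 and slide 2 it was 0.004 and -0.044. In the authors' deposited normalized values, 0 of the 50 probes passed the adjusted threshold, where 8.36% of all probes did (1311), and 7 had an unadjusted p under 0.05 (32.3% of all probes), 5 lower and 2 higher. Psmb1 came nearest there, with a difference of -0.32 (limma adjusted p = 0.0574). With surgery day as a term in those values, 0 of the 15687 probes passed the adjusted threshold. The smallest adjusted p of a member was then 0.815 by limma. Surgery day had been taken out of the deposited values by a step that is not stated.

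**Figure D5:**
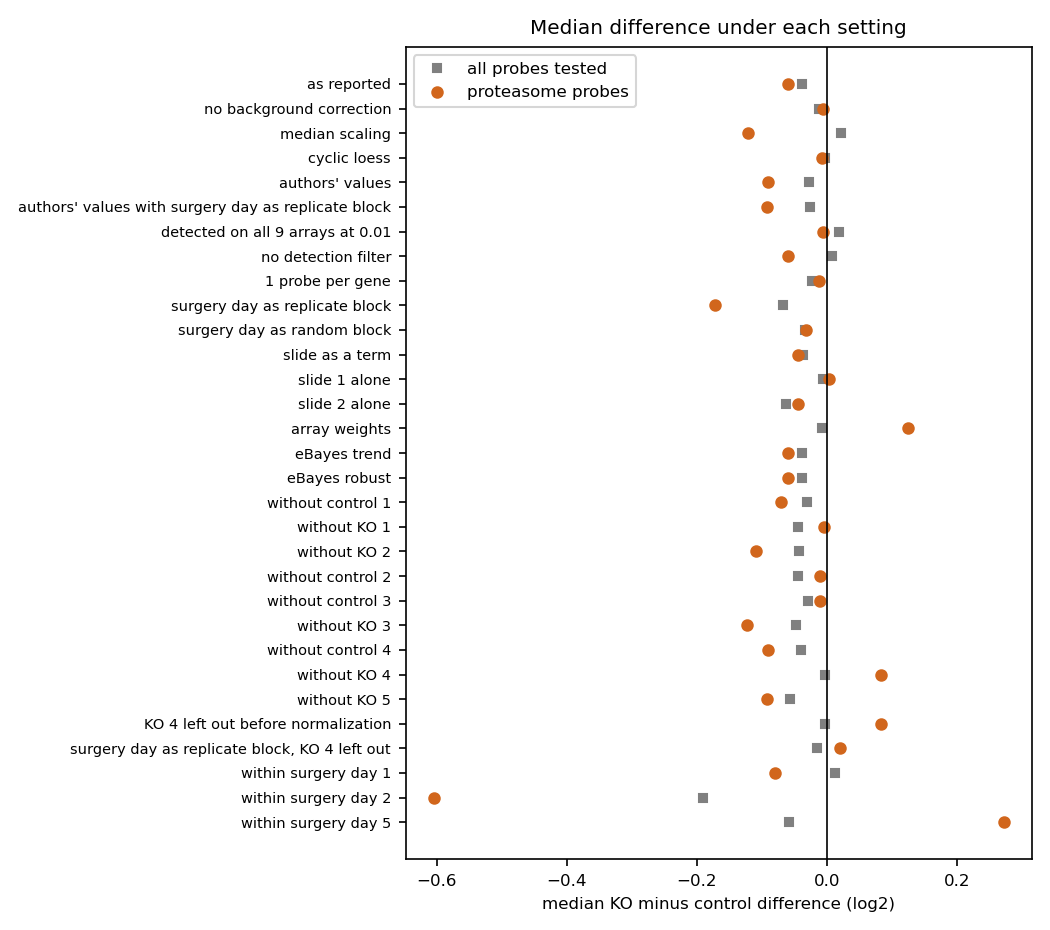
Median difference between KO and control under each setting, for the proteasome probes (circles) and for all probes tested (squares), in log2 units. Both medians stay within 0.3 of 0 under all settings drawn except the proteasome median within surgery day 2, at -0.604.

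The 5 genes with the antioxidant response element core had differences from -0.54 to -0.09, with a median of -0.38, and the 19 others with a promoter entry from -0.18 to 0.17, with a median of 0.04. Psmb5, Psmb6, Psmd9 and Psmd12, 4 of the 5, belong to the genes low on KO 4. Without that array the 5 ran from -0.29 (Psmc6) to 0.08 (Psmd12), with a median of -0.04, and the others had a median of 0.12. Genes with and without the ETS core had medians of -0.08 and 0.02, which were 0.03 and 0.11 without KO 4, so the sign for the genes with that core turned.

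Genes around the proteasome were described by lists, in which 32 of 45 genes were measured. By limma 0 of the 32 passed the threshold, 0 had an unadjusted p under 0.05, and the groups overlapped for each. All 4 measured assembly factors of the core had a lower mean in the KO livers, where 54.7% of all probes did. They ran from -0.31 (Psmg1) to -0.005 (Psmg2), with Pomp, the core's maturation factor, at -0.24 ± 0.28 (SE). The dim array KO 4 gave the lowest value of the 9 arrays for each of them. Psmg3 (-0.03), for instance, read 6.07 on KO 4 and 6.68 to 8.42 in the other KO livers. How far the shared direction rests on that array was not tested. The PA28 genes Psme1 and Psme2, whose products open the core gate, differed by -0.18 and -0.01, and the other activator genes Psme3 and Psme4 by 0.26 and -0.31. Among cap-bound enzymes, the deubiquitinases Usp14 and Uchl5 differed by 0.39 and -0.18, and the lid component Sem1 by 0.07.

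Vcp, the ATPase that extracts ubiquitylated proteins from membranes and complexes, differed by 0.10 ± 0.22 (SE), and the shuttle factor Rad23b by 0.16 ± 0.19 (SE). Faf2, a Vcp cofactor, had the lowest value of the lists, -0.64 ± 0.45 (SE), with KO 4 at 5.36 and the other KO livers at 7.25 to 7.82. Its probe was detected on 4 of the 5 KO arrays. Nfe2l1 itself differed by -0.31 ± 0.28 (SE), Nfe2l2 by -0.32 ± 0.57 (SE), and Maff, a small partner of both, by 0.53 ± 0.36 (SE; limma adjusted p = 0.959, unadjusted 0.167). The Nfe2l2 probe was detected on 4 of the 5 KO arrays. It read 4.77 on KO 4, 7.37 to 7.66 in the other KO livers and 6.45 to 7.75 in the controls. Maff was detected on 2 arrays of each group. It read 6.15 on KO 2 and 6.16 on KO 5, both of surgery day 4. The other KO livers read 4.74 to 4.90 for Maff, and the controls 4.50 to 5.10. Uba6 was the one measured gene of the ubiquitin and E1 list, at 0.35 ± 0.28 (SE).

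Markers of the cell types in liver were read beside these values, since in whole tissue fewer cells of a type and less RNA per cell cannot be told apart. All 8 hepatocyte markers were detected, with a median difference of 0.00 and summed levels of 71200 to 90900 in the controls and 73500 to 82200 in the KO livers. For Kupffer cells and macrophages 6 of 8 were tested, all with a higher mean in the KO livers, and the sum was 2540 to 4030 in the controls and 4080 to 5350 in the KO livers, without overlap (Cd5l was not detected). By limma 0 of the 6 passed the adjusted threshold and 4 had an unadjusted p under 0.05, where 3.68% of all probes did. The stellate and smooth muscle sum was 1060 to 1290 in the controls and 2730 to 3540 in the KO livers, also without overlap. Of its 6 genes 3 had a higher mean, the median difference was -0.03, 0 passed the adjusted threshold by limma and 3 had an unadjusted p under 0.05. The share of all probes beside these counts is again 3.68%, and a sum is set mostly by its genes of highest level. The neutrophil genes (3 of 3 tested higher, median 0.31) had sums of 592 to 1290 in the controls and 612 to 1880 in the KO livers, and the cholangiocyte genes (2 of 2 tested higher, median 0.48; Krt19 and Epcam not detected) 771 to 2390 and 1440 to 3030. The sinusoidal endothelium genes (4 of 6 higher, median 0.10) had sums of 5440 to 8880 and 4750 to 7300, and the erythroid genes (0 of 2 higher, median -0.05) 3820 to 14000 and 2860 to 12000. In these 4 lists the groups overlapped, and by limma 0 genes passed the adjusted threshold and 0 had an unadjusted p under 0.05. T cell genes were mostly not detected (Cd3d, Cd3g, Cd8a and Cd4), nor were the B cell genes Cd79b and Ms4a1. The part of these cells in the proteasome values was not tested.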

How the data were processed

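Total RNA of 9 livers was labelled with biotin and hybridized to Illumina bead arrays, per the labels' protocols. The deposited non-normalized file gives, per the file headers, a mean bead intensity and a detection p-value per probe and array. The deposited series values, used as an alternative, are on a log2 scale as judged from their range; Partek is named in the submitters' processing notes, and the steps are not given in the sources used here. In a fit of group and surgery day to those log2 values, the mean absolute day coefficients were 4.31e-06, 5.82e-06 and 3.97e-06 for days 2, 4 and 5 and 0.0917 for day 3, against 0.355 to 0.58 in the values used here.

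Intensities were corrected and quantile-normalized with limma neqc (offset 16, background from the detection p-values), giving log2 values. The 15687 probes detected (p under 0.05) on 4 or more arrays were fitted with limma (lmFit, eBayes, two-sided, no covariate, 7 residual degrees of freedom), with Benjamini-Hochberg adjustment and a threshold of 0.05. Symbols are those of GEO's platform annotation (34885 probes had 1 symbol, 18 with several, 10378 with none); all 66 member probes matched RefSeq (GRCm38.p6) by Entrez ID and symbol. A gene is represented by its brightest detected probe. Per-array values are given for Psmb5, Psmb6, Psmb7 and for the 5 higher and 5 lower member genes of smallest p. The number of arrays limits the precision. Tools were R 4.3.3, limma 3.58.1, Python 3.11.15 and SciPy 1.17.1. The members and lists were chosen with earlier results of these data known.

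The fit was tested on simulated data of independent probes for KO against control (15687 probes): 14.4% of simulated differences of 1 log2 unit were called, 68% of those of 2, 90.6% of those of 3 and 0.4% of those of 0.5. Deviations of same-day arrays from the group means had correlations across probes of 0.196 (day 1), -0.437 (day 2), -0.593 (day 5) and 0.317 (day 4, both KO). Whether surgery day paired the arrays was not tested. Alternatives covered normalization, detection filter, surgery day, slide, array weights, variance model and each array left out; those leaving out KO 4 before normalization, or with the day block, were added after the data were seen.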

Additional observations from a re-analysis of the deposited data

Results flagged for a closer look

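Among 124 groups of arrays (62 genes in both groups), 7 held 1 array far from the rest, where chance alone gives about 1 in 20 groups, or 6.2. Of the 7, 5 were KO 4. Psma4, an alpha subunit gene, read 10.60 on KO 4 and 11.90 to 12.01 in the other KO livers, and the lid gene Psmd11 read 5.30 against 7.91 to 8.82. Faf2 read 5.36 against 7.25 to 7.82, Ufd1, also a Vcp cofactor, 5.00 against 6.83 to 7.53, and Nfe2l2 4.77 against 7.37 to 7.66. Psmd11, Faf2, Ufd1 and Nfe2l2 were each detected on 4 of the 5 KO arrays. Psmg2, a core assembly factor, read 8.91 in control 1 against 8.35 to 8.43 in the other controls, and Psme2 read 4.58 in control 1 against 5.15 to 5.21.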

How the results depend on the processing

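In the 27 alternatives with a test, 0 proteasome probes passed the adjusted threshold in limma. Over all probes, the count past it was 0 as reported and 1 with no background correction, without the detection filter and with 1 probe per gene, 2 with cyclic loess, the stricter detection filter or a variance trend, 6 with median scaling, 12 with array weights, 1311 in the authors' values, 5 with KO 4 left out before normalization, and 0 to 5 with 1 array left out. In the authors' values with surgery day as a term, the count over all probes was 0. Proteasome probes at an unadjusted p under 0.05 numbered 0 as reported, 7 in the authors' values, 1 each with array weights and without the detection filter (a Psmd7 probe), and 0 to 1 with 1 array left out (Psmc3ip without control 3). Their median was -0.172 with surgery day as replicate block (0 probes past the threshold), 0.125 with array weights, -0.604 and 0.272 within days 2 and 5, 0.084 with KO 4 left out before normalization, 0.02 with the replicate block and KO 4 left out, and -0.123 (without KO 3) to 0.084 (without KO 4) with 1 array left out. Signs of 14 of the 30 gene differences turned with median scaling and of 12 without KO 4. In the authors' values, Psmb9 against Psmb6 stood at 0.319 and Psmb10 against Psmb7 at 0.061 (exact permutation p = 0.190 and 0.730). With 1 array left out, the ranges were -0.444 to 0.193 for Psmb9 against Psmb6, -0.444 to 0.086 for Psmb10 against Psmb7, and 0.063 to 0.791 for Psmb8 against Psmb5. The lowest value of each range was the one without KO 4. Causes of these shifts were not tested.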
